A study of Mus musculus with 15 samples.

Results

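The regions described here are stretches of mouse liver chromatin that stayed closed across age and genotype. They were defined as autosomal bins of 2 kb called het (closed) in P14 knockout, 2-month wild-type and P14 wild-type hepatocytes alike. Adjacent bins were joined, and runs of at least 100 kb were kept. This gave 950 blocks out of 36067 constant het runs on the autosomes. The blocks covered 175.904 Mb, or 7.11% of autosomal bins, while bins that were het in all 3 maps made up 31.5%. The blocks were thus chosen by their het calls in all 3 maps, so their closed state and their length are given as a description with no test.

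Hepatocytes of 15 mice were profiled by srHC-seq, which shears fixed chromatin by sonication and reads out where it resists shearing (closed) and where it breaks readily (open). The first group was 5 mice of postnatal day 14 (P14) with the genotype Alb-Cre;Ezh1-/-;Ezh2f/f, 2 males and 3 females. The second was 5 wild-type (Wt) mice aged 2 months, of which 2 were male and 3 female. The third was 5 wild-type mice at P14, of which 3 were male and 2 female. In the knockout, Ezh1 is disrupted in the whole animal and the floxed Ezh2 only where Cre is made under the albumin promoter, which is active in hepatocytes. The wild-type label names no Cre, so an effect of Cre and one of the lost genes cannot be told apart. Each group is represented by 1 genome map on mm9, read as a pool of its 5 mice, with every stretch called het, int (intermediate) or euch (open). A call describes the pool, so a state shared by all cells and one held by most of them cannot be told apart. The maps hold no counts and no gene levels, so depth is unknown and neither the loss of Ezh1 and Ezh2 nor hepatocyte markers could be checked here. With 1 map per group there is no replicate, and no difference between maps or between sets of regions was tested.

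Closed chromatin packs DNA so that most of its genes stay silent. It is commonly divided into constitutive heterochromatin, marked by methylated lysine 9 of histone H3, and facultative heterochromatin, marked by methylated lysine 27. Lysine 27 is methylated by PRC2, whose catalytic subunit is either EZH1 or EZH2. The maps do not say which mark a closed stretch carries. Genes were not placed in the blocks, because the annotation at hand was for GRCm38 and not for mm9, so blocks are given by position.

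Most blocks were short members of a set with a long tail. The median length was 142 kb, with quartiles of 116 and 208 kb, and the longest was 946 kb. Blocks of at least 200 kb numbered 260 and held 83.8 Mb, and 27 blocks reached 500 kb. The length limit falls within a smooth series, with 36 runs of exactly 100 kb just inside it and 30 runs of 98 kb just outside. Blocks made up 2.63% of constant het runs and 22.6% of their bases, since the median run was only 12 kb. They held a similar part of the closed chromatin in each map, 15.5% of het bases in P14 knockout, 15.4% in 2-month wild-type and 15.7% in P14 wild-type hepatocytes. The mirror set, runs of at least 100 kb that were euch in all 3 maps, was larger at 1423 blocks and 229.376 Mb, or 9.28% of bins. Open blocks were seldom as long, however, with 4 of at least 500 kb.

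Of all autosomes, chromosome 7 held by far the most constant closed chromatin in blocks of at least 100 kb. Its 146 blocks covered 28.8 Mb, or 18.9% of the chromosome and 16.4% of all block bases. They took up 33.4% of the het bases that chromosome 7 had in the P14 wild type. Chromosomes 12 and 14 followed with 10.7% and 10.0% of their length, in 80 and 52 blocks. Chromosome 5 had 9.23% in 63 blocks, with the highest median length, 190 kb. At the other end, chromosome 19 had 5 blocks that covered 1.20% of it, chromosome 10 had 3.49% and chromosome 3 had 3.78%. Chromosome 19 also had the lowest het share of all autosomes, 32.9% in P14 knockout, 26.6% in 2-month wild-type and 37.5% in P14 wild-type hepatocytes. It was the autosome with the largest share in constant open blocks, 16.1%, and chromosome 7 the one with the smallest, 5.67%.

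**Figure D1:**
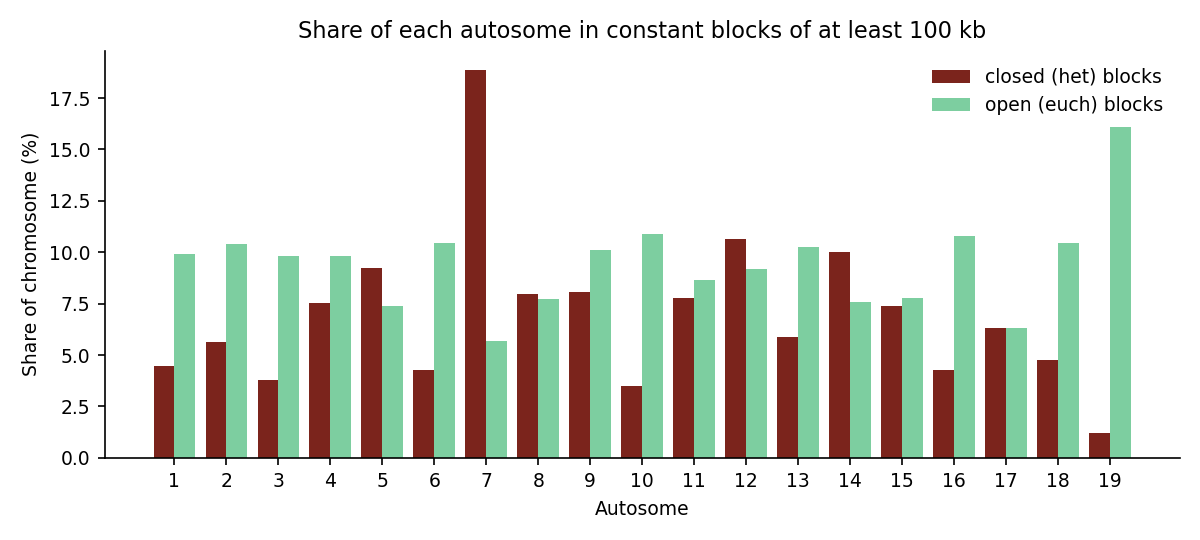
Share of each autosome, in percent of its length, that lay in blocks of at least 100 kb with one class in all 3 maps, closed (het, dark red) or open (euch, green). Chromosome 7 stands out at 18.9% closed, and chromosome 19 has 1.20% closed beside 16.1% open.

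Along the chromosomes the blocks were unevenly spread. Of 247 stretches of 10 Mb, 49 held no block, the median stretch had 4.24% of its length in blocks, and the richest 10 held 20.1% of all block bases. The richest was the start of chromosome 14, where blocks covered 51.2% of the 10 Mb up to position 10000000. Chromosome 7 came next, with 43.5% from 30000001 to 40000000 and 39.4% from 20000001 to 30000000. Chromosome 4 had 34.2% from 120000001 to 130000000, and chromosome 5 had 32.5% over the same positions. By relative position, the last 20% of chromosome length held 135 and 138 blocks per 10%. The parts from 10% to 20% and from 20% to 30% held 117 and 105. The part between 30% and 40% held the fewest, 39, and the other parts held 77 to 88. Of the 950 blocks, 4 adjoined a long int run (at least 100 kb that was int in all maps), and 33 lay within 1000 kb of one.

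The 10 longest blocks lay on 6 chromosomes, with 3 each on chromosomes 7 and 14. The longest was on chromosome 14 from 3432001 to 4378000. In P14 knockout hepatocytes it was part of a het domain of 2126 kb, at 2 months of one of 2128 kb, and in the P14 wild type of one of 948 kb. The block of 868 kb on chromosome 7 from 22690001 to 23558000 was a complete domain with the same edges in every map. This property was shared by 13 blocks (1.37%), and it was not counted over all constant het runs. The block on chromosome 2 from 171180001 to 172040000 sat in domains of 1336 kb in P14 knockout, 1284 kb in 2-month wild-type and 988 kb in P14 wild-type hepatocytes. On chromosome 12, from 107730001 to 108582000, the domains measured 1482, 1374 and 854 kb in the same order. The block on chromosome 8 from 120390001 to 121236000 had 1440, 1182 and 900 kb. In these last 3 regions the P14 wild-type domain was the shortest.

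Among the other long blocks the order of the maps varied. The block of 826 kb on chromosome 14 from 42458001 to 43284000 lay in domains of 990 kb in both P14 knockout and 2-month wild-type hepatocytes, and was itself the whole domain in the P14 wild type. On chromosome 14 from 7782001 to 8532000, the domains were 1474, 1424 and 772 kb in P14 knockout, 2-month wild-type and P14 wild-type hepatocytes. On chromosome 7 from 21414001 to 22190000, by contrast, they were 990, 776 and 992 kb, so that the 2-month domain was the shortest. Its neighbour from 20608001 to 21366000 had 760, 758 and 784 kb. The block on chromosome 4 from 152380001 to 153118000 sat in domains of 1056 and 948 kb in P14 knockout and 2-month wild-type hepatocytes, and in one of 1410 kb in the P14 wild type, the longest of that map that holds a block.

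The longest blocks of the remaining autosomes showed the same variety. Chromosome 5 had 736 kb from 95154001 to 95890000, in domains of 1292 kb in P14 knockout, 1162 kb in 2-month wild-type and 940 kb in P14 wild-type hepatocytes. Chromosome 18 had 624 kb from 83246001 to 83870000, in domains of 642, 764 and 716 kb in that order. Chromosome 15 had 598 kb from 86272001 to 86870000, where the 2-month domain was no longer than the block and the others reached 878 kb in the knockout and 866 kb in the P14 wild type. The block of chromosome 13, 578 kb from 70044001 to 70622000, was the whole P14 wild-type domain, and was held in 724 kb in the knockout and 722 kb at 2 months. For chromosome 11, 548 kb from 55324001 to 55872000, the 2-month domain equalled the block and the P14 wild-type domain was the longest at 676 kb. Chromosome 9 had 478 kb from 27006001 to 27484000, set in 1314 kb of het in the knockout, 478 kb at 2 months and 724 kb in the P14 wild type. Chromosome 16 had 494 kb and chromosome 1 had 458 kb. The rest lay between 400 kb on chromosome 10 and 216 kb on chromosome 19, with 370 kb on chromosome 3, 318 kb on chromosome 17 and 310 kb on chromosome 6.

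Over all blocks, the domain that held a block was longer at 2 months and in the knockout than in the P14 wild type, but not uniformly so. Its median length was 238 kb in P14 knockout, 266 kb in 2-month wild-type and 200 kb in P14 wild-type hepatocytes. The domain was at least as long as its block by definition. Knockout domains were longer than P14 wild-type ones for 521 blocks, shorter for 384 and equal for 45, with a median ratio of 1.04. At 2 months they were longer for 573, shorter for 345 and equal for 32, with a median ratio of 1.15. Both comparisons use the same P14 wild-type map. The ratio was at least 2 for 198 blocks in the knockout and 245 at 2 months, and at most 0.5 for 65 and 67. Het domains in general were longer in these maps too, with medians over all autosomal domains of 16 kb in P14 knockout, 18 kb in 2-month wild-type and 14 kb in P14 wild-type hepatocytes. The counts of longer and shorter domains were not made over all constant het runs, so they cannot be read as particular to the blocks. Blocks that share a domain are each counted. For open blocks the median ratio at 2 months was 1.33, and 1182 of 1423 domains were longer.

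**Figure D2:**
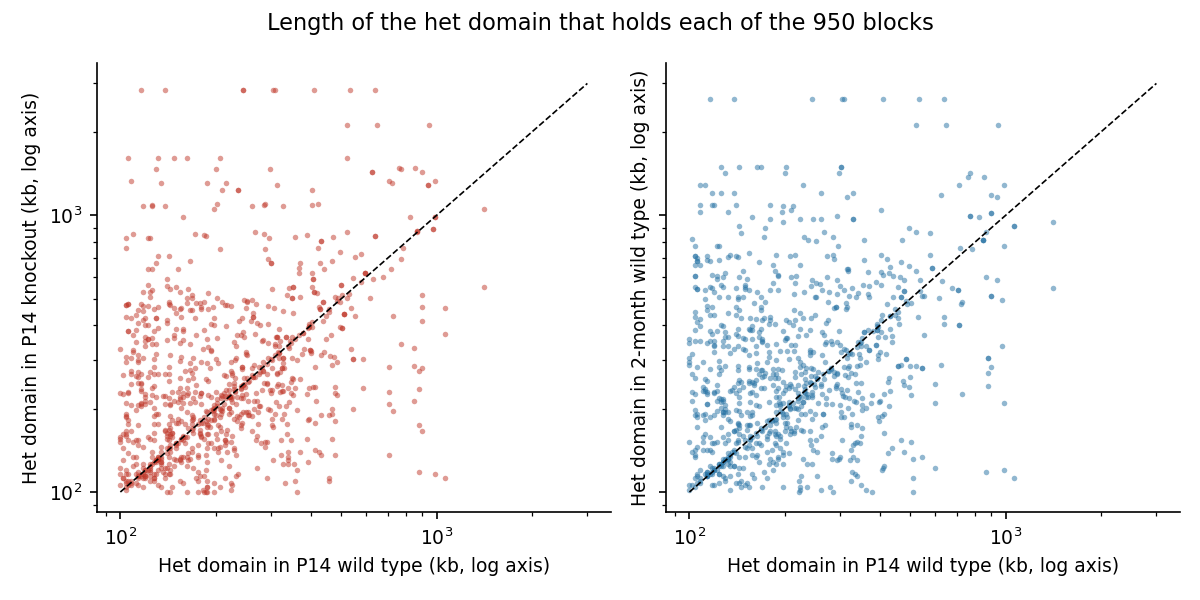
Length in kb (log axes) of the het domain that holds each of the 950 blocks, in P14 knockout (left, red) and 2-month wild-type hepatocytes (right, blue) against P14 wild type, 1 point per block, with the line of equal length dashed. Points lie on both sides of the line, with 521 blocks above it in the knockout and 573 at 2 months; blocks in 1 domain share a height.

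Some blocks that were separate domains in the P14 wild type lay in a single domain in the other maps. The 950 blocks occupied 803 distinct domains in P14 knockout, 790 in 2-month wild-type and 874 in P14 wild-type hepatocytes. All autosomal het domains numbered 38014, 28510 and 41439 in the same order, so the P14 wild type had the most domains over all autosomes as well. Domains with more than 1 block numbered 106, 121 and 66 in the same order, and one domain held up to 9, 8 and 4 blocks. The extreme was on chromosome 7. There, the blocks from 32420001 to 32536000 (116 kb) and from 32278001 to 32416000 (138 kb) were whole domains in the P14 wild type, while both lay in a domain of 2844 kb in the knockout and of 2628 kb at 2 months. These were the largest ratios in both comparisons. A block of 108 kb on chromosome 2 from 171068001 to 171176000 followed at 2 months, in domains of 1336, 1284 and 108 kb in P14 knockout, 2-month wild-type and P14 wild-type hepatocytes.

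At other blocks the domain was longest by far in 1 map. The block on chromosome 17 from 52584001 to 52710000 lay in 1490 kb of het at 2 months but in 134 kb in the knockout and 126 kb in the P14 wild type. On chromosome 3 from 158926001 to 159038000, the domains were 350 kb in the knockout, 1284 kb at 2 months and 112 kb in the P14 wild type. Conversely, the block on chromosome 12 from 115894001 to 116000000 lay in 1618 kb in the knockout, 412 kb at 2 months and 106 kb in the P14 wild type. That knockout domain also held the block from 116376001 to 116480000, whose domain was 184 kb at 2 months and 132 kb in the P14 wild type.

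The smallest ratios belonged to blocks inside a much longer P14 wild-type domain. On chromosome 4 from 131280001 to 131392000, the block of 112 kb was the whole domain in P14 knockout and 2-month wild-type hepatocytes, against a domain of 1066 kb in the P14 wild type. On chromosome 2 from 172054001 to 172168000, the domains were 116, 120 and 988 kb. A domain that was short at 2 months alone was found on chromosome 15 from 86936001 to 87054000, with 878 kb in the knockout, 118 kb at 2 months and 866 kb in the P14 wild type. The same was seen on chromosome 11 from 57158001 to 57280000, with 618, 122 and 596 kb, and on chromosome 4 from 143616001 to 143716000, with 440, 100 and 510 kb. The remaining 3 of the 5 smallest knockout ratios belonged to blocks on chromosome 7 from 81060001, chromosome 4 from 125100001 and chromosome 2 from 170562001. Their knockout domains measured 118, 166 and 136 kb, their 2-month domains 304, 512 and 402 kb and their P14 wild-type domains 880, 900 and 710 kb.

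Some closed blocks followed one another at short range, while most stood alone. Of 931 gaps between neighbours on a chromosome, 237 (25.5%) were at most 50 kb and 348 exceeded 1000 kb, with a median of 420 kb. Gaps between all constant het runs, which are far more numerous, were at most 50 kb in 82.5% of cases. Joining neighbours at most 50 kb apart gave 149 chains with 386 blocks and 45.7% of block bases, 99 of them pairs, while 564 blocks stood alone. In all, 13 chains spanned at least 1 Mb. The longest ran for 3950 kb on chromosome 7 from 20608001 to 24558000, with 10 blocks. Het covered 97.1% of it in P14 knockout, 96.9% in 2-month wild-type and 96.6% in P14 wild-type hepatocytes. A chain of 7 blocks spanned 3244 kb of chromosome 14 from 3052001 to 6296000, with 95.4%, 95.5% and 95.1% in the same order.

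The third, 2736 kb of chromosome 7 from 32026001 to 34762000, differed most between maps in how it was divided. It was 1 het domain in the knockout, 2 at 2 months and 8 in the P14 wild type, although het covered 100%, 99.9% and 98.4% of it. Further chains lay on chromosome 14 from 42106001 to 43762000 (1656 kb) and from 6892001 to 8532000 (1640 kb). Chromosome 5 held chains from 94668001 to 96210000 (1542 kb), from 26322001 to 27666000 (1344 kb) and from 128464001 to 129476000 (1012 kb).

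**Figure D3:**
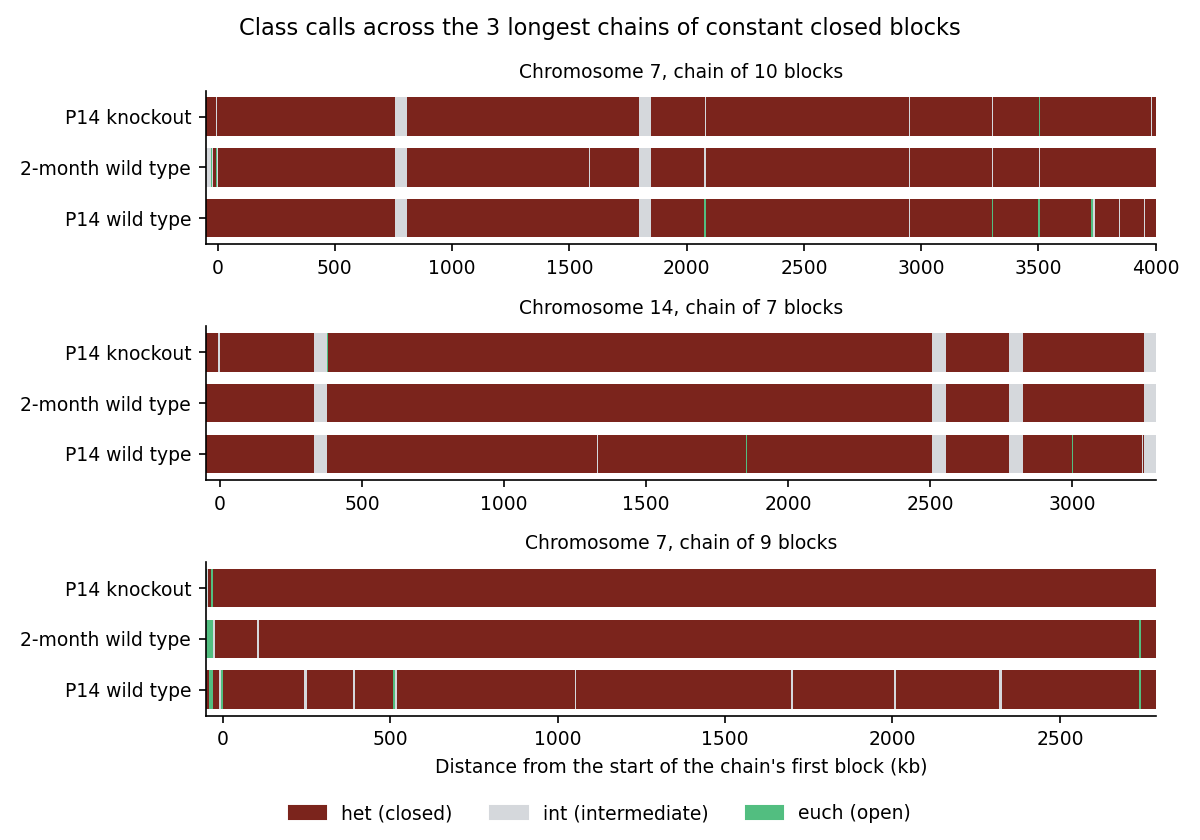
Class calls (het dark red, int grey, euch green) along the 3 longest chains of constant closed blocks in P14 knockout, 2-month wild-type and P14 wild-type hepatocytes, with distance in kb from the start of the first block and 50 kb shown on each side. In the third chain the P14 wild type has 8 het domains, against 1 in the knockout and 2 at 2 months; grey bars shared by all maps are breaks called int throughout.

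The short breaks inside chains were often present in 1 map only, and most often in the P14 wild type. Of the 237 breaks of at most 50 kb, with a median of 8 kb, 20 (8.44%) interrupted het in the knockout alone, 29 (12.2%) at 2 months alone and 84 (35.4%) in the P14 wild type alone. All 3 maps were interrupted at 55 breaks (23.2%), and 9 were int throughout in every map. Over all 29734 breaks of at most 50 kb between constant het runs, the knockout alone made 11.8%, the 2-month map alone 9.54%, the P14 wild type alone 19.0% and all 3 maps together 34.1%. Breaks were wholly het in P14 knockout in 121 cases (51.1%), at 2 months in 127 (53.6%) and in the P14 wild type in 67 (28.3%). Over all breaks between constant het runs, the wholly het shares were 34.0%, 44.9% and 27.3%.

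At most edges a block ended because 1 map left the closed state. Of 1900 edges, the only map not het in the next bin was the P14 knockout at 474 (24.9%), the 2-month wild type at 418 (22.0%) and the P14 wild type at 699 (36.8%). Over the 72134 edges of all constant het runs, these shares were 25.1%, 21.2% and 34.6%, so the long blocks ended much like the rest. All 3 maps left het in the same bin at 114 edges (6%), against 4.01% over all constant runs. The map that left moved to int more often than to euch, in 68.4% of cases in P14 knockout, 64.8% in 2-month wild-type and 63.2% in P14 wild-type hepatocytes. Over all constant runs the int share was 59.4%, 60.7% and 56.4%. Of the edges of constant open blocks, the P14 knockout alone ended 26.8%, the 2-month map alone 8.89% and the P14 wild type alone 42.9%. Over all constant open runs these shares were 23.4%, 16.7% and 34.8%.

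**Figure D4:**
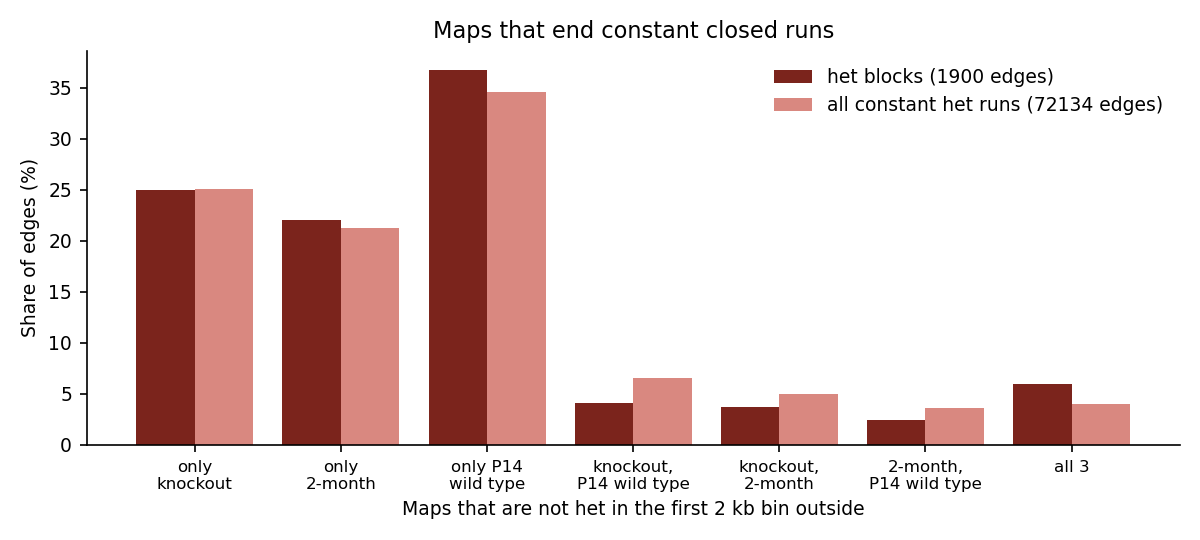
Share of edges, in percent, by the maps that are not het in the first 2 kb bin outside, for the long closed blocks (dark) and for all constant het runs (light). The P14 wild type alone accounts for 36.8% of block edges, and all 3 maps together for 6%.

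Beyond its edges a closed block lay in chromatin that was mostly closed as well, in every map. Within 50 kb on each side, het covered a mean of 77.2% in P14 knockout, 77.4% in 2-month wild-type and 75.6% in P14 wild-type hepatocytes, with medians of 83%, 84% and 80%. Over the flanks of all constant het runs the means were lower, at 59.9%, 64.6% and 55.5% in the same order. The flanks of blocks include any neighbouring block. They ranged widely between blocks, with 106 blocks at 90% or more in all maps and 41 below 50% in all maps. Flanks had more het in the knockout than in the P14 wild type at 501 blocks (52.7%) and less at 384 (40.4%), where all constant het runs had 55.7% and 40.0%. At 2 months there was more at 499 (52.5%) and less at 389 (40.9%), where all constant runs had 59.9% and 37.2%. The mean differences were 1.56 percentage points for the knockout and 1.74 points at 2 months, against 4.45 and 9.18 points over all constant het runs. Their sign turned for blocks of at least 200 kb, at -0.292 and -1.38 points. Each flank begins with the first bin outside, which by the rule is not het in at least 1 map. In the zone 20 to 50 kb from the nearest block, het covered 75.7% in P14 knockout, 74.6% in 2-month wild-type and 76.2% in P14 wild-type hepatocytes. The flanks of open blocks were called euch over 67.0% of their length in P14 knockout, 77.1% in 2-month wild-type and 60.3% in P14 wild-type hepatocytes. Compared with the P14 wild type, the knockout share was higher at 891 open blocks (62.6%) and lower at 460 (32.3%), against 58.5% and 36.6% of all constant open runs. The 2-month share was higher at 1179 (82.9%) and lower at 206 (14.5%), against 68.0% and 29.2%.

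The profile by distance showed where the maps diverged around closed blocks. In the first bin outside, which by the rule is not het in at least 1 map, het covered 61.1% in P14 knockout, 65.8% in 2-month wild-type and 50.7% in P14 wild-type hepatocytes. Between 10 and 20 kb the shares were 77.0%, 77.1% and 76.6%, so the maps were within 1 point of each other. Averaged over each of the zones between 20 and 1000 kb, the 2-month map had the least het, though single bins differed. Its share was 53.5% between 100 and 200 kb and 43.8% between 200 and 500 kb, while the P14 knockout had 56.2% and 46.2% and the P14 wild type 56.5% and 47.8%. Beyond 1000 kb the order was turned, with 37.3% in P14 knockout, 38.7% in 2-month wild-type and 36.0% in P14 wild-type hepatocytes.

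**Figure D5:**
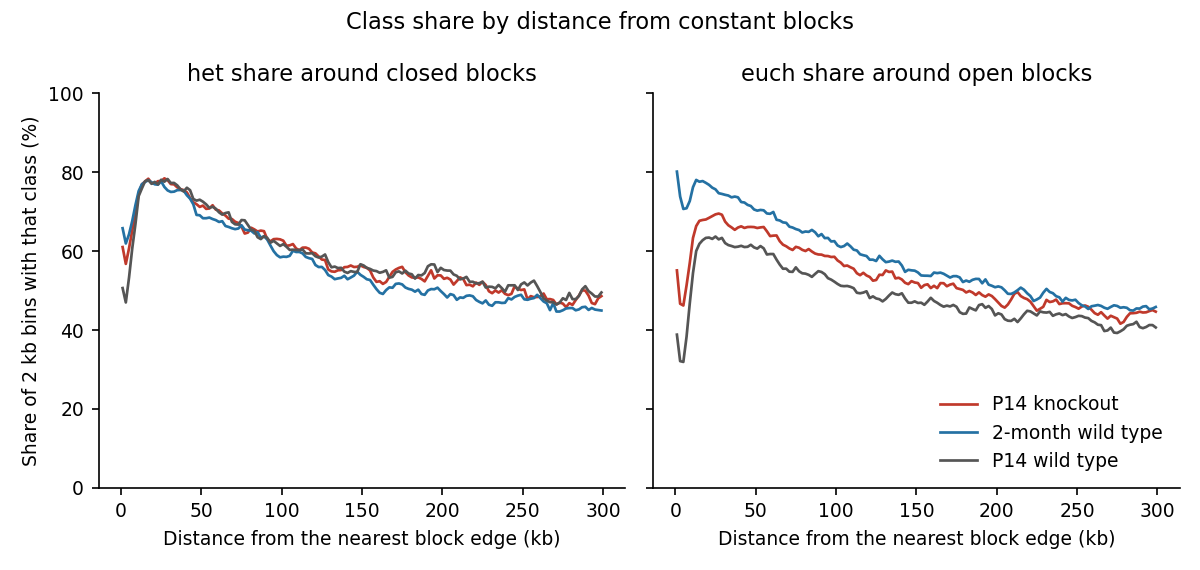
Share of 2 kb bins, in percent, called het by distance in kb from the nearest constant closed block (left), and called euch by distance from the nearest constant open block (right), in P14 knockout (red), 2-month wild-type (blue) and P14 wild-type (grey) hepatocytes. On the left the lines nearly coincide between 10 and 20 kb, where the shares are 77.0%, 77.1% and 76.6%. On the right the 2-month line lies above the others near the block, at 73.8% between 20 and 50 kb against 62.0% in the P14 wild type.

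Counted as gains and losses, chromatin near the blocks changed in both directions. Of bins 20 to 50 kb away that were not het in the P14 wild type, 31.5% were het in the knockout and 31.9% at 2 months, against 17.2% and 20.0% of such bins over all autosomes. Of bins at that distance het in the P14 wild type, 10.4% were not het in the knockout and 12.0% at 2 months. Over all autosomes the shares were 19.4% and 22.3%. Those 561311 bins include the 87952 block bins, which by the rule cannot be lost, so both autosomal shares are lowered. Loss shares without block bins were not computed. At 200 to 500 kb the gains were 16.8% and 17.5% and the losses 21.7% and 27.5%. In bases, that zone gained 23.1 Mb of het at 2 months and lost 33.2 Mb, a net of -10.1 Mb, and in the knockout gained 22.2 Mb and lost 26.1 Mb, a net of -3.96 Mb. Beyond 1000 kb the net was 39.9 Mb at 2 months and 20.1 Mb in the knockout. With long int runs left out, the gains over all autosomes were 18.2% in the knockout and 21.2% at 2 months. Around open blocks, 31.7% of bins 20 to 50 kb away that were not euch in the P14 wild type were euch in the knockout and 44.2% at 2 months, against 14.5% and 17.4% over all autosomes, or 15.3% and 18.3% without long int runs. Of euch bins there, 11.1% were not euch in the knockout and 8.12% at 2 months, against 20.1% and 22.7% over all autosomes. Those 528200 autosomal bins include the 114688 bins of open blocks, which by the rule cannot be lost, so these shares too are lowered.

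Lower het around the blocks at 2 months was seen on most autosomes taken singly. With long int runs left out, het between 20 and 500 kb from a block was lower at 2 months than in the P14 wild type on 15 of 19 autosomes, with a median difference of -3.53 percentage points. Farther than 500 kb from any block it was lower on 6 of 19, with a median of 1.68 points. On 18 of 19 autosomes the near zone had the more negative difference, the exception being chromosome 19, where het was lower at 2 months by -10.4 points near its 5 blocks and by -11.8 points elsewhere. For the knockout, the near zone was lower on 14 autosomes and the far zone on 5, with medians of -1.14 and 1.29 points, and the near zone was the more negative on 14. The largest knockout difference in the near zone was on chromosome 11, with het at 52% in P14 knockout and 58.1% in P14 wild-type hepatocytes. At 2 months the same zone of chromosome 11 had 50.4%. The near zones held more het than the far zones in every map, and the part of that difference in level in the result was not tested.

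Windows of 1 Mb were compared with block bins left out of the values. In the 655 windows that held part of a block, het covered a mean of 55.3% of the remainder in P14 knockout, 52.7% in 2-month wild-type and 55.9% in P14 wild-type hepatocytes. In the 1735 windows with no block the means were 40.0%, 41.1% and 39.0%. Het was lower at 2 months than in the P14 wild type in 399 windows with a block (60.9%), against 56.0% of all windows. In the knockout it was lower in 363 (55.4%), against 52.8% of all. With windows of 500 kb this order of the counts turned. Het was then lower at 2 months in 54.3% of windows with a block and 56.3% of those without, and in the knockout in 49.6% and 52.4%. For windows of 1 Mb, the mean difference at 2 months was -3.28 points with a block and 2.05 points without. Without a block the median was -1.80 points, so mean and median differ in sign there. In the knockout the means were -0.608 and 1.03 points, and without a block the median was -0.600 points. Euch in windows with a block was at 34.9% in P14 knockout, 38.6% in 2-month wild-type and 34.0% in P14 wild-type hepatocytes.

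Closed blocks were also placed relative to the constant open ones. Of the 655 windows with part of a closed block, 194 (29.6%) also held part of a constant open block, against 887 of 1735 windows (51.1%) without a closed block. A closed block leaves less room in its window for an open one, which by itself lowers the share. It was 38.5% in windows with under 20% in closed blocks and 19.5% in those with 20% or more. How much of the difference comes from room was not tested. The median distance from a closed block to the nearest constant open block was 1027 kb. It was at most 100 kb for 36 blocks (3.79%) and above 1000 kb for 479 (50.4%). Of all autosomal bins outside open blocks, 10.6% lay within 100 kb of one and 41.3% beyond 1000 kb, with a median of 758 kb. The distance of a block is that of its nearest edge, while that of a bin is its own.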

How the data were processed

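The deposited files are 9 lists of intervals, 1 per class and group, in which the score column is 0 throughout, so the authors' values are the intervals and class letters alone. Per the submitters' processing notes, bcl2fastq 2.19.0.316, STAR 2.4.2a and bedtools were used on mm9. The domain caller and its thresholds are not given in the sources used here. Sample descriptions name each list under all 5 mice of its group, with 1 exception (the euch list is missing from the entry of 1 female aged 2 months), so pooling is an inference.

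Lists were read onto a grid of 2 kb with Python 3.11.15, NumPy 2.4.6 and pandas 2.3.3. Every autosomal bin lay wholly in 1 class. Coordinates are 1-based. Figures used Matplotlib 3.10.9, and SciPy 1.17.1 gave binomial intervals that judge shifts under alternatives. Block finding was tested on simulated maps. Named blocks were the 10 longest, the longest of each autosome and the 5 largest and smallest domain ratios per comparison. Members and lists were chosen with earlier results of these data known. Windows under 50% of full length, with at least 50% in long int runs, or under 10% outside blocks, were left out. Since depth is unknown, no counting error can be given. Gene lists and sequences were not used here, as no mm9 annotation or genome was at hand.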

Additional observations from a re-analysis of the deposited data

How the results depend on the processing

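No paired analysis was possible because each list pools the mice of its group, which also means that no replicate could be omitted. Leaving out each autosome in turn gave 804 to 945 blocks and 147 to 175 Mb, and the number stayed within 1.5 times of 950 with chromosome X added, with breaks of 1 bin bridged, and when any 1 map was dropped. Without the P14 wild type the total was 274 Mb. A minimum of 50 kb gave 2932 blocks (308 Mb) and one of 200 kb gave 260 (83.8 Mb). Medians of the holding domain were then 142 and 378 kb in P14 knockout, 170 and 418 kb at 2 months and 112 and 350 kb in the P14 wild type. For blocks of at least 200 kb, edges ended by 1 map alone were 22.5% for the knockout, 24.8% for 2 months and 33.5% for the P14 wild type.

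Most flank shares moved by more than their binomial intervals, which treat neighbouring bins as independent. The exceptions were 77.3% in the knockout for flanks of 100 kb and 75.6% in the P14 wild type for blocks of at least 200 kb. In the order P14 knockout, 2-month wild type and P14 wild type, flanks of 20 kb had 72.9%, 74.5% and 68.6%, and blocks of at least 50 kb had 75%, 76.7% and 71.5%. Without chromosome 7 the values were 76.3%, 76.7% and 74.9%. Flanks of 100 kb had 76.7% at 2 months and 76.3% in the P14 wild type, and blocks of at least 200 kb had 75.3% in the knockout and 74.2% at 2 months. Shorter flanks give more weight to the first bin outside, which by the rule is not het in at least 1 map. Differences from the P14 wild type were 4.25 points (knockout) and 5.91 points (2 months) at 20 kb, 0.972 and 0.423 at 100 kb, and 3.52 and 5.27 for blocks of at least 50 kb. For blocks of at least 200 kb they turned to -0.292 and -1.38; the cause was not tested. In windows of 500 kb with a block, the het differences were -0.151 points in the knockout and -1.99 points at 2 months, and the share of windows with lower het was below that of windows without a block in both comparisons. The windows, the near and far zones, the omission of long int runs, the 500 kb setting and the omission of chromosome 7 from flanks were chosen after seeing the data. Whether a bin was called het wholly or at 50% of its bases made no difference, since no bin was mixed. GC content and gene content were not run. Depth is unknown and sets no stated limit.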

Other observations

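On chromosome X, which the definition leaves out, the same rule gave 31 runs that covered 3.82 Mb, or 2.29% of the chromosome. The longest was 192 kb and the median 116 kb. Their flanks within 50 kb were het over 75.7% in P14 knockout, 80.2% in 2-month wild-type and 62.7% in P14 wild-type hepatocytes. The pools held unequal numbers of each sex, with 3 females of 5 in the first 2 groups and 2 of 5 in the P14 wild type, and its part in these values was not tested.

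The change of flank share with age differed between autosomes. The 2-month minus P14 wild-type difference, averaged over the blocks of a chromosome, was lowest on chromosome 11 (-5.88 points), highest on chromosome 3 (7.68 points) and positive on 13 of 19. For the knockout it was lowest on chromosome 11 (-8.24 points), highest on chromosome 16 (7.67 points) and also positive on 13. Chromosome 11 had the lowest value in both comparisons, which share the P14 wild-type map. These flanks include the first bin outside a block, which by the rule is not het in at least 1 map. Chromosome 14 had flanks with less het than those of most autosomes, at 70.5% in P14 knockout, 70.6% in 2-month wild-type and 66.3% in P14 wild-type hepatocytes. Its longest chain was cut by stretches called int with the same ends in all 3 maps, such as 2506 to 2554 kb from the chain's start. The part of such stretches in these flank values was not tested.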
